A study of Mus musculus with 6 samples.

Results

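The genes described here code for zinc finger proteins and were taken by symbol: all rows of the deposited count table named Zfp or Zkscan followed by a number, without Zfp36, which codes for an RNA-binding protein of another zinc finger type. The rule found 326 genes of the 11881 listed, 316 named Zfp and 10 named Zkscan. They were measured by RNA-seq in microglia, the resident macrophages of the brain, sorted (CD11b-positive, CD45-low) from hippocampi of males aged 17 to 21 postnatal days, while hippocampal circuits mature. The mice carried 1 disrupted copy of Mll5 (Mll5+/-, heterozygous) or were wild type (WT), with 3 mice and 3 libraries of each. Mll5, now named Kmt2e, codes for a chromatin protein of the MLL family. The labels used here name no strain, no Cre driver and no way in which the Mll5 allele was made, and no treatment is given for either genotype.

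C2H2 zinc finger proteins bind DNA through arrays of short fingers, each held together by a zinc ion between cysteines and histidines, and each finger contacts a few bases. In many of them a KRAB domain at the start of the protein recruits Trim28, which brings in the histone methyltransferase Setdb1 and heterochromatin proteins and so silences the bound DNA, often a retroelement or an imprinted locus. The genes multiplied by local duplication and lie in clusters, so that neighbours can be close copies. SCAN domains, found in Zkscan proteins and some others, let these proteins pair with each other. Proteins with fingers and no such domain include general transcription factors and RNA-binding, mitotic and ubiquitin or SUMO ligase proteins.

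The longest reading frame of the GENCODE vM21 transcripts gave a domain class for 325 of the 326 genes. A KRAB pattern was found in 192 genes, with a median of 12 fingers each. A SCAN pattern was found in 19 genes, all 10 Zkscan genes among them, with a median of 7 fingers. No gene met both patterns. A KRAB domain that departs from the pattern is missed, so genes of the SCAN class are not shown to lack one. Fingers with neither pattern were found in 108 genes, with a median of 8, and 6 genes had none of the patterns.

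Promoters show how the KRAB class differs from the rest in sequence. RefSeq promoters, from 250 bases before to 50 after a gene's start on GRCm38.p6, matched 268 of the genes. The 8-letter word AATGTAGT, or its reverse complement ACTACATT, was picked from these promoters. Of the 8-letter words frequent in KRAB promoters, it had the highest share there relative to its share in other tested genes. Its contrast between those sets therefore follows from the choice. The word was found in 30 of 166 KRAB promoters (18.1%) and in 4 of 102 promoters of the other zinc finger genes (3.92%). It was also found in 1.72% of the promoters of 8414 other tested genes and in 1.35% of all 27025 RefSeq promoters. Of the 30 KRAB genes with the word, 17 lie on chromosome 7 and 25 in clusters, where genes are often copies, so these promoters are not independent of each other. The median position of the word was -62.5 bases from the start, with a range of -224 to 11. The GC box GGGCGG, read on both strands, was found in 39.8% of KRAB promoters, 61.8% of those of the other zinc finger genes and 69.2% of those of other tested genes. CCAAT was found in 57.8%, 46.1% and 43.3% of the same 3 sets, and TATAAA in 9.04%, 7.84% and 8.69%. Over all 27025 RefSeq promoters the shares were 38.2% for GGGCGG, 41.1% for CCAAT and 15.7% for TATAAA. The KRAB share of the GC box was thus near that of all RefSeq promoters and below that of tested genes. KRAB promoters held a median of 10 CG pairs, against 20.5 in the other zinc finger genes and 21 in other tested genes. Among tested KRAB genes, log2 fold changes of Mll5+/- over WT were negative for 13 of 27 with the word and 87 of 129 without it. Promoters of 3 KRAB genes with the word are printed with that of Zkscan2, which has no copy of it and more CG pairs. The 3 were those of smallest edgeR p and are lower in Mll5+/-, while Zkscan2 is higher. All are printed 5′ to 3′ on the gene's own strand. The word is in capitals. On GRCm38.p6 they lie at chr7:27731159-27731458 (Zfp60, plus strand), chr7:7136706-7137005 (Zfp773, minus strand), chr13:67268945-67269244 (Zfp458, minus strand) and chr7:123500577-123500876 (Zkscan2, minus strand). Counts of CG pairs in these windows are 17, 7, 9 and 30 in that order.
Zfp60: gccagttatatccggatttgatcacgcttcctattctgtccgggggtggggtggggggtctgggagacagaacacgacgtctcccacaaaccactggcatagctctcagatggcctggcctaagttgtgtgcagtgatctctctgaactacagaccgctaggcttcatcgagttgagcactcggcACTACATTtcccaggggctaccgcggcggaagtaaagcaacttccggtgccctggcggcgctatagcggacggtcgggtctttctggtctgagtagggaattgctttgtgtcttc
Zfp773: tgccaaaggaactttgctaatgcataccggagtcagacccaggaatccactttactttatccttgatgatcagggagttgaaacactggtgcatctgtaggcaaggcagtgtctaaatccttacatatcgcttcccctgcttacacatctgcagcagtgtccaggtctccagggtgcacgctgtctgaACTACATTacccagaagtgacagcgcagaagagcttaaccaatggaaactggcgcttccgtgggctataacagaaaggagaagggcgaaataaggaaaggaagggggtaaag
Zfp458: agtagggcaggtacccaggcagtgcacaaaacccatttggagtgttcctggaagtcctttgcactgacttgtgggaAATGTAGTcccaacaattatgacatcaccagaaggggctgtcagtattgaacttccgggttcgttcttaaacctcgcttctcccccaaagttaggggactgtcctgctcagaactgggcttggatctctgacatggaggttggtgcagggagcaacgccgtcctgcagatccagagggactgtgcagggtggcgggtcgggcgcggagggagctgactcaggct
Zkscan2: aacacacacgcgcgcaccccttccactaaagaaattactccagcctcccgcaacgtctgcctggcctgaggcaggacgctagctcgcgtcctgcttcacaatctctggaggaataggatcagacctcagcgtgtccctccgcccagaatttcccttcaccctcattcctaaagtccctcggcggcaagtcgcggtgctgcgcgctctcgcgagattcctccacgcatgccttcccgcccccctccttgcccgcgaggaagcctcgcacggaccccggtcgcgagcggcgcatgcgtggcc

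The 6 libraries held between 21075570 and 29730400 counts. Each group's values follow the same order of mice throughout, which names them and ranks nothing. Values are given as counts per 1000000 (CPM) at library sizes scaled by TMM, on which 3 counts correspond to between 0.104 and 0.142 CPM. Kmt2e had 648, 298 and 513 CPM in libraries labelled Mll5+/- and 480, 378 and 688 CPM in those labelled WT. Its log2 fold change was -0.08 (95% interval -0.79 to 0.63, edgeR adjusted p = 0.9995), so the counts do not separate the labelled genotypes, and Mll5+/- and WT below mean the libraries labelled so. All 7 microglial markers examined were counted in every library. Their summed level was between 6500 and 7490 CPM in Mll5+/- and between 8107 and 12124 CPM in WT, without overlap. Summed markers of neurons were between 182 and 216 CPM in Mll5+/- and between 183 and 245 CPM in WT, with Syt1, Rbfox3 and Tubb3 not listed. Summed astrocyte markers were between 253 and 478 CPM in Mll5+/- and between 337 and 545 CPM in WT, with Gfap not listed. Marker genes of oligodendrocytes summed to between 43.0 and 48.3 CPM in Mll5+/- and between 35.3 and 143 CPM in WT, border macrophage markers to between 82.2 and 196 CPM in Mll5+/- and between 81.7 and 111 CPM in WT, and endothelial markers to between 5.76 and 19.4 CPM in Mll5+/- and between 9.74 and 20.2 CPM in WT. The part of these cells in the values below was not tested, and in such bulk samples fewer cells of a type and less RNA per cell cannot be told apart.

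Zinc finger protein genes were mostly of low level. After the filter on low counts 312 of the 326 were tested, with a median of 12.2 CPM and quartiles at 4.65 and 32.9 CPM. The median over all 10832 tested genes was 17.8 CPM. KRAB genes had a median of 10.1 CPM over 180 tested genes, and genes with fingers alone had 17.9 CPM over 107. The 29 Zbtb genes, which code for zinc finger proteins with a BTB domain, had a median of 42.3 CPM, and the 7 Zscan genes had 9.60 CPM. All 6 libraries had a count for 252 of the 326 genes (77.3%), and for 76.8% of all listed genes.

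A few genes made up much of the summed level. Zfp263, a SCAN-class transcription factor, took 11.4% of the CPM of all 326 genes. With Zfp691 the share was 22.2%, with the 10 most abundant 45.0% and with the 20 most abundant 57.7%. Zfp263 had 2067, 1771 and 2061 CPM in Mll5+/- and 1878, 1448 and 1654 CPM in WT. The ranges overlapped, and the log2 fold change was 0.24 ± 0.15 (SE). Zfp652, a transcriptional repressor, had 836, 1276 and 848 CPM in Mll5+/- and 1177, 960 and 808 CPM in WT, with a log2 fold change of 0.01 ± 0.22 (SE). Zfp207, also called BuGZ, which binds the checkpoint protein Bub3 at kinetochores, had 603, 554 and 536 CPM in Mll5+/- and 525, 502 and 416 CPM in WT. All 3 Mll5+/- libraries lay above all 3 WT libraries, by a log2 fold change of 0.23 ± 0.17 (SE). Zfp292, a large protein with 14 fingers, had 541, 452 and 520 CPM in Mll5+/- and 692, 486 and 438 CPM in WT. Among KRAB genes the most abundant were Zfp266, Zfp317 and Zfp626, at means of 365, 309 and 295 CPM over the 6 libraries. Zfp626 varied least of these, with 326, 278 and 314 CPM in Mll5+/- and 286, 283 and 284 CPM in WT. Per kilobase of the longest annotated transcript the order was Zfp691 at 734, Zfp263 at 559, Zfp207 at 180, Zfp652 at 94.3 and Zfp317 at 77.4 CPM per kilobase.

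**Figure D1:**
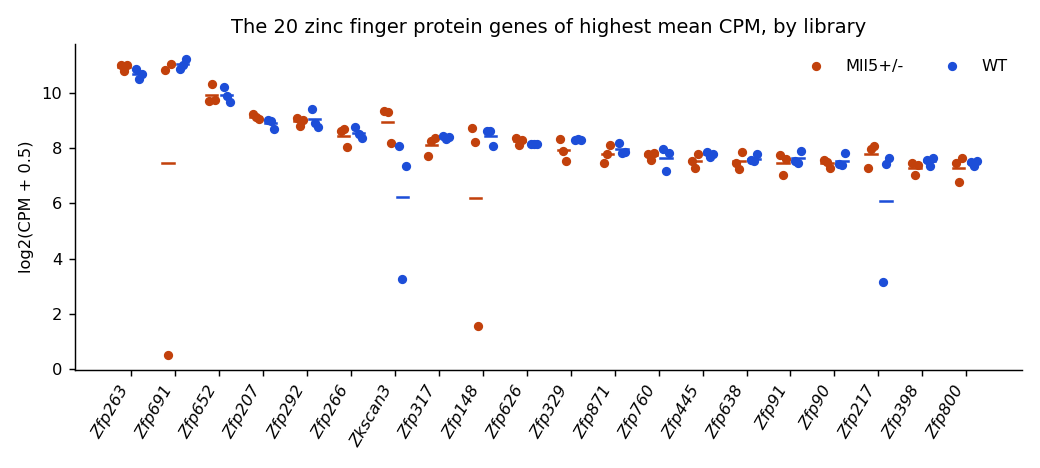
The 20 zinc finger protein genes of highest mean CPM on the x axis, with log2(CPM + 0.5) on the y axis. Points are libraries, Mll5+/- left of WT, and bars are means of the plotted values. Most genes have 6 points close together, while Zfp691 and Zfp148 each have 1 Mll5+/- library far below, and Zkscan3 and Zfp217 each have 1 low WT library.

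Several genes, abundant ones among them, were far lower in some libraries than in others of the same genotype. Zfp691 had 1845, 0.913 and 2111 CPM in Mll5+/- and 1851, 2091 and 2417 CPM in WT, so that its second Mll5+/- library stood 2313-fold below the highest of that genotype. The 5 other listed genes that start within 60 kb of Zfp691 had between 0 and 40.3 CPM, and the second Mll5+/- library was the lowest for none of them. Zfp148, which binds GC-rich promoters, had 427, 300 and 2.46 CPM in Mll5+/- and 397, 392 and 273 CPM in WT. Here the third Mll5+/- library was low, 174-fold below the highest. Zfp217, a transcription factor amplified in human breast cancer, had 157, 250 and 273 CPM in Mll5+/- and 8.40, 171 and 199 CPM in WT, with the first WT library low. Zfp422 had 56.9, 83.0 and 0.236 CPM in Mll5+/- and 2.13, 3.16 and 47.9 CPM in WT, a 351-fold range within Mll5+/- and a 22.5-fold range within WT. Zfp629 had 33.7, 23.9 and 6.85 CPM in Mll5+/- and 0.0418, 23.6 and 19.1 CPM in WT. The largest ranges further included Zfp568, Zfp563, Zfp456 and Zfp790, at 217, 151, 150 and 150-fold in the genotype with the wider range.

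Such gaps were common in the set. A gene was called far apart where the highest of the 3 libraries of 1 genotype was at least 8-fold the lowest, with libraries under 3 counts raised to 3. This held for 131 of 312 zinc finger genes (42.0%) and for 29.5% of all tested genes. It held within Mll5+/- for 101 genes (21.6% of all tested genes were so within Mll5+/-), within WT for 72 (17.5%) and within both genotypes for 42 (9.62%). Nearest to the limit, Zfp574, Zfp46 and Zfp692 had ratios of 7.51, 7.66 and 7.71, and Zfp867, Zfp442 and Zfp622 had 8.26, 8.41 and 8.66. The share fell with level. Between 1 and 4 CPM it was 77.0% of zinc finger genes and 76.9% of other genes. At higher levels the shares differed, at 50.9% and 36.9% between 4 and 16 CPM, 20.5% and 9.06% between 16 and 64 CPM, and 12.5% and 5.54% at 64 CPM or more. Among genes without a run of 75 bases in common with any other gene, the shares between 16 and 64 CPM were 28.9% of 38 zinc finger genes and 8.93% of 1736 other genes. The lowest library was the third in 52 of the 101 genes far apart within Mll5+/-, and the third in 39 of the 72 within WT. Over all listed genes, too, the third library of each genotype had the most genes at 0. There were 1394 in Mll5+/-, against 1185 and 828 in its first and second library. In WT there were 1084, against 846 and 850. By domain class the share was 43.3% of KRAB, 42.1% of SCAN and 41.1% of fingers-only genes. The Zbtb genes, of higher median level, had 24.1%, and the Zscan genes 42.9% (3 of 7).

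**Figure D2:**
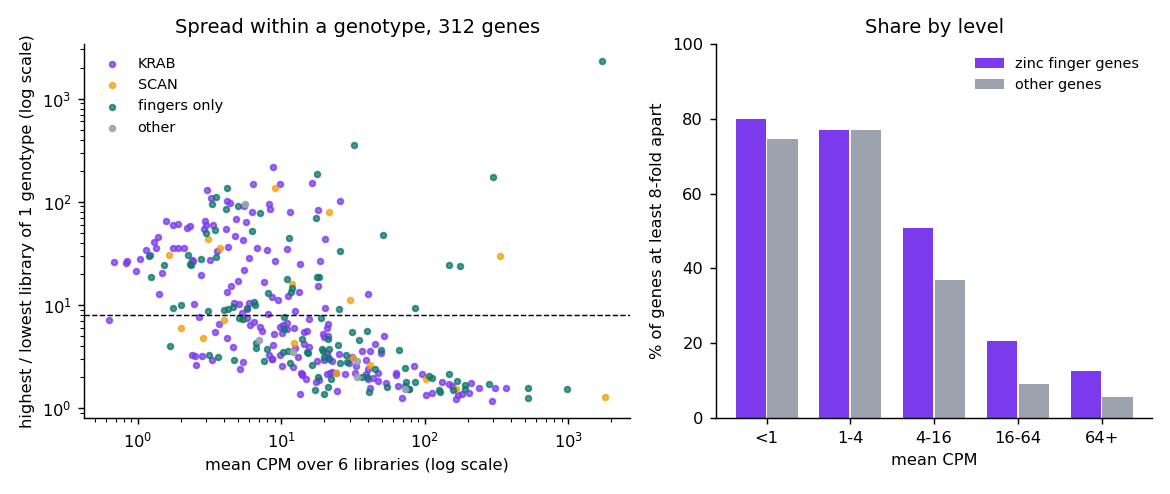
Left, for 312 tested zinc finger genes, the highest over the lowest library of 1 genotype (the larger ratio of the 2 genotypes) against mean CPM, both on log scales, coloured by domain class, with a dashed line at 8-fold. Right, the percentage of genes at least 8-fold apart by level for zinc finger genes and other genes, which is about equal up to 4 CPM and higher for zinc finger genes above it, at 20.5% against 9.06% between 16 and 64 CPM.

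Between the genotypes no zinc finger gene passed an adjusted p of 0.05 in edgeR's quasi-likelihood test, nor did any other gene (0.0% of 10832). The smallest adjusted p over all genes was 0.9995, so each gene named below had at least this edgeR adjusted p, and the biological coefficient of variation was 80.4%. At an unadjusted p under 0.05 there were 18 of 312 zinc finger genes (5.77%, against 2.88% of all tested genes), of which 7 were higher in Mll5+/- (2.24%, against 1.36%) and 11 were lower (3.53%, against 1.52%). DESeq2 called 1 zinc finger gene, Zkscan2, at an adjusted p of 0.05, and 0.166% of all tested genes. At its unadjusted p under 0.05 it gave 20 zinc finger genes (6.41%, against 3.88%). Voom with sample weights called none, with 17 at an unadjusted p under 0.05 beside 4.31% of all tested genes. The libraries of the genotypes did not overlap for 34 zinc finger genes (10.9%, against 9.32% of all tested genes), with Mll5+/- above WT for 11 (4.68% of all tested genes) and below WT for 23 (4.64%). The median log2 fold change was -0.08, against 0.02 over all tested genes, with 142 positive and 170 negative values. The summed CPM of all 326 genes was 16891, 13900 and 16323 in Mll5+/- and 17228, 15520 and 15603 in WT, a log2 ratio of -0.04. Without Zfp691, low in 1 library, the sums were 15046, 13899 and 14211 in Mll5+/- and 15377, 13430 and 13187 in WT, a log2 ratio of 0.04.

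Of the genes with the smallest p and higher values in Mll5+/-, Zkscan2, a SCAN-domain gene at chr7:123074607-123099672 on mm39, was counted in Mll5+/- alone. It had 3.35, 7.37 and 1.23 CPM in Mll5+/-, which are 85, 210 and 26 counts, and 0 in all 3 WT libraries. Against a floor of 3 counts in each WT library, its mean of 3.99 ± 3.12 CPM (SD, n = 3) was at least 34.7-fold higher. DESeq2 gave it an adjusted p of 0.0159 and edgeR an adjusted p of 0.9995. Zkscan2 passed the low-count filter only through Mll5+/-, where it is high, so the DESeq2 call rests on a gene that had to differ to be tested. Zfp239, which the low-count filter removed, had 0, 9.83 and 16.2 CPM in Mll5+/- and 0 in all WT libraries. In the other direction Zfp114, also untested, was at 0 in all Mll5+/- libraries and averaged 0.529 ± 0.503 CPM in WT (SD, n = 3).

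Zfp131, a zinc finger protein with a BTB domain, had 183, 22.6 and 212 CPM in Mll5+/- and 27.0, 34.1 and 31.3 CPM in WT. The first and the third Mll5+/- library lay far above WT and the second below it, and the log2 fold change was 2.18 ± 0.71 (SE; edgeR adjusted p = 0.9995). Zfp747 had 6.35, 2.07 and 34.9 CPM in Mll5+/- and 0.209, 1.39 and 0.625 CPM in WT, without overlap (log2 fold change 4.28 ± 1.28, SE). It shares 161 runs of 75 bases with its neighbour Zfp764. Zfp275, on the X chromosome, had 2.41, 59.2 and 80.9 CPM in Mll5+/- and 5.27, 5.08 and 0.347 CPM in WT, with 1 Mll5+/- library inside the WT range. Zfp516, a transcription factor of brown fat, had 37.2, 34.4 and 69.5 CPM in Mll5+/- and 24.8, 27.1 and 24.7 CPM in WT, again without overlap (log2 fold change 0.88 ± 0.39, SE). Zfp738, Zfp867 and Zfp420 had log2 fold changes of 1.68, 2.36 and 2.06.

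Genes with the smallest p and lower values in Mll5+/- were mostly of the KRAB class and of low level. Zfp60 had 3.12, 3.09 and 0.945 CPM in Mll5+/- and 11.0, 22.2 and 8.57 CPM in WT (log2 fold change -2.54 ± 0.82, SE; edgeR adjusted p = 0.9995). Zfp773 had 0.237, 0.140 and 1.47 CPM in Mll5+/- and 22.5, 9.35 and 2.19 CPM in WT. For both, every Mll5+/- library lay below every WT library. Zfp446 had 1.58, 5.20 and 4.02 CPM in Mll5+/- and 15.3, 11.0 and 21.7 CPM in WT. Zfp931 had 0.118, 0.386 and 0 CPM in Mll5+/- and 4.56, 5.66 and 3.71 CPM in WT. Zfp472 had 14.9, 13.8 and 14.6 CPM in Mll5+/- and 42.4, 31.0 and 19.1 CPM in WT, close together in Mll5+/- and spread in WT. Zfp574, the one of these 8 without a KRAB pattern, had 1.07, 0.386 and 0 CPM in Mll5+/- and 3.68, 15.4 and 9.78 CPM in WT. Zfp617 and Zfp429 had log2 fold changes of -1.69 and -1.92, and Zfp617 shares 39.0% of its 75-base runs with other genes and overlaps Zfp882. Zfp458, Zfp202 and Zfp944 complete the 11 lower genes, with log2 fold changes of -2.19, -4.81 and -1.09. For all 8 lower genes of smallest p the genotypes did not overlap, and for 5 of the 8 higher ones they did not. These genes were picked by p from the same libraries, so this largely follows from the choice. Zfp773, Zfp931 and Zfp574 also passed the low-count filter only through WT, where they are high. Zfp747 and Zfp275 passed it only with their Mll5+/- libraries, where they are high. Genes like these had to be high in a genotype to be tested, which limits what their p and any lack of overlap can show. Of all tested genes, 4.64% had Mll5+/- below WT without overlap and 4.68% had it above.

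**Figure D3:**
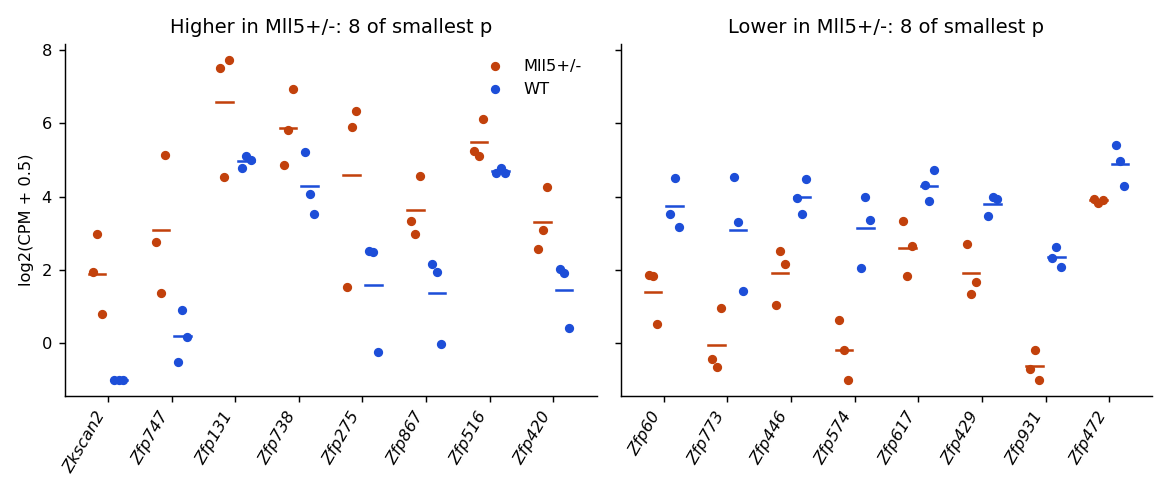
The 8 zinc finger genes of smallest edgeR p in each direction, with log2(CPM + 0.5) on the y axis. Points are libraries, Mll5+/- left of WT, and bars are means of the plotted values. All 8 lower genes have their Mll5+/- points below their WT points, while Zfp131, Zfp738 and Zfp275 on the left have 1 Mll5+/- point within or below the WT range.

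Zfp62, chosen after its values were seen, depended on 1 library. It had 7.57, 10.8 and 187 CPM in Mll5+/- and 225, 229 and 231 CPM in WT. With all libraries its log2 fold change was -1.74 ± 1.34 (SE). Without the third Mll5+/- library the log2 fold change was -4.64 and the edgeR adjusted p 0.00692, and Zfp62 was the one zinc finger gene to pass the threshold when a library was left out. The WT values spanned 1.03-fold and the Mll5+/- values 24.7-fold.

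The KRAB class, chosen as a class after seeing the data, was lower in Mll5+/- for more of its genes than not. Of the tested KRAB genes, 128 lie in clusters, where genes are often copies, so the genes counted are not independent of each other. Of 180 tested KRAB genes, 113 had a negative log2 fold change (62.8%, against 48.2% of all tested genes), and the median was -0.25, against 0.02. The shift was smaller in the 82 KRAB genes with no 75-base run shared with another gene, of which 58.5% were negative, with a median of -0.09 and with 2 genes above and 5 below WT without overlap. Genes with fingers alone had 45 of 107 negative (42.1%) and a median of 0.07, and SCAN genes had 10 of 19 negative and a median of -0.03. The KRAB genes without overlap between the genotypes were 3 with Mll5+/- above WT and 18 with Mll5+/- below WT (4.68% and 4.64% of all tested genes). At an unadjusted p under 0.05 there were 12 KRAB genes (6.67%, against 2.88% of all tested genes), 3 higher and 9 lower (1.36% and 1.52% of all tested genes). Zfp773 and Zfp931, among the lower ones, passed the low-count filter only through WT, where they are high. By level, negative values made up 55.6% of KRAB genes between 1 and 4 CPM, 67.1% between 4 and 16 CPM, 68.1% between 16 and 64 CPM and 47.4% at 64 CPM or more, against 47.5%, 46.5%, 48.3% and 49.2% of genes outside the set. The libraries themselves were not separated by the class. The median deviation of KRAB genes from their mean over the 6 libraries was 0.10, -0.11 and -0.21 in Mll5+/- and 0.41, 0.12 and -0.01 in WT on the log2 scale, so the first Mll5+/- library lay above the third WT library. Pooled within genotype, these medians had an SD of 0.188 between libraries. The summed CPM of the 192 KRAB genes was 5372, 4776 and 5390 in Mll5+/- and 6181, 5279 and 5185 in WT, which overlap. Tested KRAB genes with the word AATGTAGT in their promoter had 13 of 27 negative values, and those without it 87 of 129. The summed microglial markers, lower in Mll5+/- without overlap, moved in the same direction, and their part in these values was not tested.

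**Figure D4:**
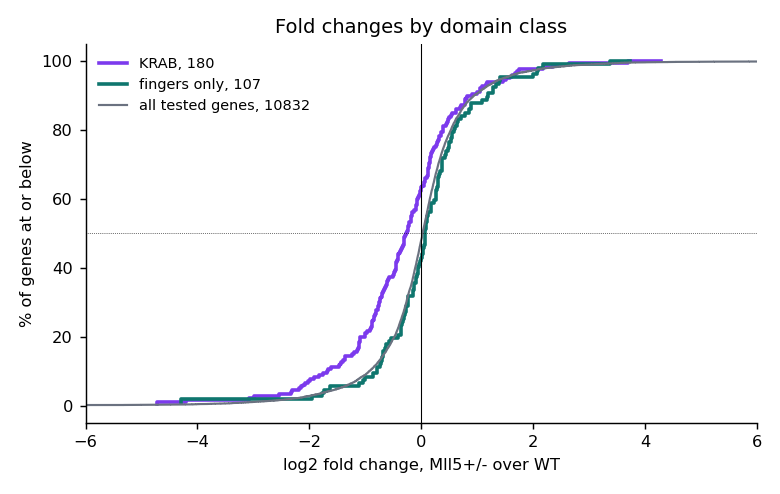
Cumulative percentage of genes (y axis) at or below each log2 fold change of Mll5+/- over WT (x axis) for KRAB genes, genes with fingers alone and all tested genes. The KRAB line crosses 50% at -0.25, left of the other lines, which cross it at 0.07 and 0.02.

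Genes with known roles in silencing overlapped between the genotypes. Zfp57 and Zfp445 keep imprints in mouse embryos. Zfp57 had 22.6, 10.6 and 14.6 CPM in Mll5+/- and 10.5, 14.2 and 11.7 CPM in WT. Zfp445 was more abundant, with 185, 155 and 219 CPM in Mll5+/- and 232, 205 and 222 CPM in WT (log2 fold change -0.24). Zfp809, which silences murine leukaemia proviruses at their primer binding site, had 17.5, 13.3 and 24.3 CPM in Mll5+/- and 39.2, 32.1 and 17.8 CPM in WT. Zfp568, which represses a placental promoter of Igf2, had 11.4, 2.39 and 0.520 CPM in Mll5+/- and 15.8, 22.6 and 0.0694 CPM in WT. Zfp708 and Zfp932, which bind retroelements in mouse, had log2 fold changes of 0.77 and -0.46. Zfp42 and Zfp819 are not among the listed genes.

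Genes of general transcription gave mixed values. Zfp143, which binds promoters and chromatin loops, had 20.9, 16.4 and 31.4 CPM in Mll5+/- and 17.9, 18.6 and 28.1 CPM in WT. Zfp281, a regulator of pluripotent cells, had 61.7, 69.0 and 18.8 CPM in Mll5+/- and 85.5, 89.8 and 72.7 CPM in WT, without overlap (log2 fold change -0.73). Zfp335, needed in neural progenitors, had 12.8, 0.140 and 0.614 CPM in Mll5+/- and 4.43, 10.7 and 1.18 CPM in WT. Zfp64 had 14.6, 2.84 and 10.4 CPM in Mll5+/- and 1.30, 5.16 and 0.555 CPM in WT, with the second Mll5+/- library inside the WT range. Zfp703, a corepressor, had 42.9, 39.3 and 40.1 CPM in Mll5+/- and 22.5, 39.1 and 19.3 CPM in WT, without overlap (log2 fold change 0.60). Zfp384, Zfp592, Zfp608, Zfp609, Zfp687 and Zfp710 had log2 fold changes between -0.33 and 0.30.

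Among genes that act on RNA, Zfp638, a nuclear RNA-binding protein, had 177, 150 and 231 CPM in Mll5+/- and 187, 185 and 220 CPM in WT. Zfp598, a ubiquitin ligase at collided ribosomes, had 1.93, 5.65 and 20.5 CPM in Mll5+/- and 3.43, 5.20 and 2.12 CPM in WT. Zfp830, a splicing factor, had a log2 fold change of -0.74 and overlapped between the genotypes. Zfp326, Zfp106, Zfp318 and Zfp346 had log2 fold changes between -0.06 and 0.10. Of the ubiquitin and SUMO ligases, Zfp91 had 216, 129 and 195 CPM in Mll5+/- and 186, 176 and 236 CPM in WT. Zfp451, a SUMO ligase, had 174, 168 and 123 CPM in Mll5+/- and 147, 200 and 135 CPM in WT. None of the genes in this paragraph had an unadjusted edgeR p under 0.05.

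The 10 Zkscan genes ranged from a mean of 1.99 CPM, in Zkscan2, to 335 CPM, in Zkscan3. Zkscan3, described in human cells as a repressor of autophagy and lysosome genes, had 650, 637 and 288 CPM in Mll5+/- and 268, 8.97 and 162 CPM in WT. Every Mll5+/- library lay above every WT library, but the WT values spanned 29.8-fold, and the log2 fold change was 1.84 ± 1.17 (SE). Zkscan1 had 1.81, 112 and 1.42 CPM in Mll5+/- and 5.60, 2.04 and 5.93 CPM in WT, high in 1 Mll5+/- library alone. Zkscan6 had 22.8, 11.3 and 19.7 CPM in Mll5+/- and 0.836, 13.4 and 3.26 CPM in WT. Zkscan8 had 31.1, 34.7 and 23.1 CPM in Mll5+/- and 26.6, 64.6 and 69.3 CPM in WT. Zkscan4, Zkscan5, Zkscan7, Zkscan14 and Zkscan17 overlapped between the genotypes. As a family, 5 of the 10 had positive and 5 negative values.

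The genes lay in clusters. With at most 300 kb between neighbouring starts there were 30 runs of 3 or more zinc finger genes, with 177 of the 326 genes (54.3%). Chromosome 7 held 78 of the genes, chromosome 17 held 39 and chromosome 13 held 31. The run at chr13:67186660-67975121 on mm39 had 17 genes, all of the KRAB class and all tested, with 3 at an unadjusted p under 0.05 (2.88% of all tested genes), Zfp458, Zfp429 and Zfp738, of which Zfp738 was the higher one in Mll5+/-. The most abundant of this run were Zfp58, Zfp65, Zfp738 and Zfp87, and 11 of the 17 had negative log2 fold changes. The run at chr17:21604010-22675670 also had 17 KRAB genes, led by Zfp760, Zfp948, Zfp758 and Zfp994, with 10 of 16 tested negative and a median log2 fold change of -0.76. The run at chr7:29467977-29869152 had 15 genes with no other listed gene between them, led by Zfp260, Zfp30, Zfp566 and Zfp84. Here 10 of the 15 were positive, with a median of 0.30, and none had an unadjusted p under 0.05. Tested genes inside runs had a median log2 fold change of -0.18 over 167 genes, and those outside -0.02 over 145. Within the KRAB class the values were -0.24 over 128 genes inside runs (61.7% negative) and -0.27 over 52 outside (65.4% negative).

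**Figure D5:**
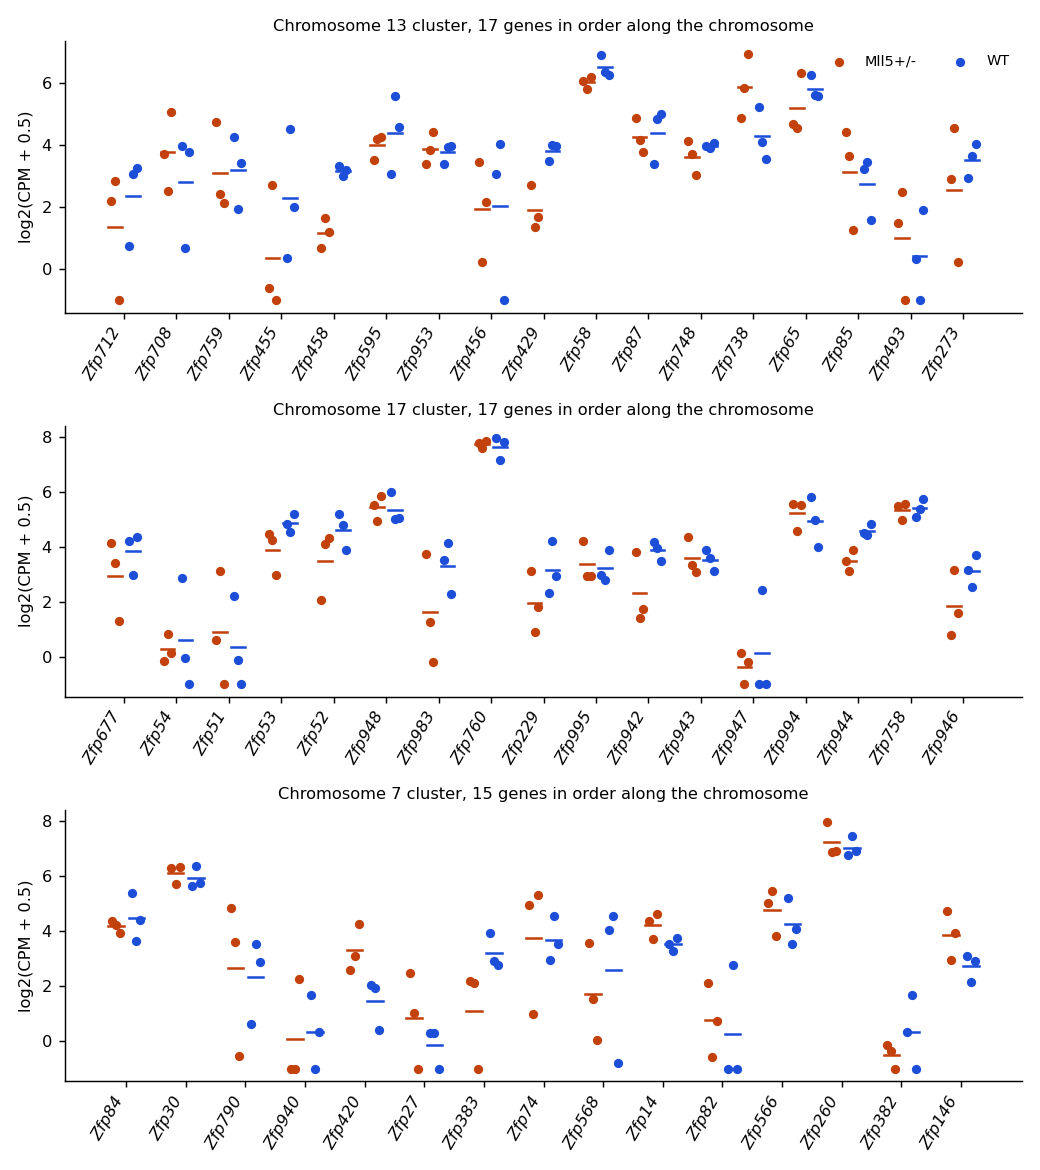
The genes of the 3 largest runs in their order along the chromosome (x axis), with log2(CPM + 0.5) on the y axis. Points are libraries, Mll5+/- left of WT, and bars are means of the plotted values. Neighbours differ widely in level, and in each run genes with higher and with lower Mll5+/- means stand side by side.

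Correlations across the libraries were near 0 for neighbours and higher for close copies. With genotype means removed, the median Pearson correlation of log2(CPM + 0.5) over the 6 libraries was 0.07 for 626 pairs in the same run, 0.02 for pairs on different chromosomes and 0.03 for neighbouring genes outside the set. For 19 pairs that share at least 100 runs of 75 bases it was 0.58. These correlations rest on 6 libraries that the genes share and are given as a description. Zfp967 and Zfp969 had a value of 0.97, Zfp968 and Zfp969 0.94, and Zfp97 and Zfp960 0.88, while Zfp747 and Zfp764 had -0.83. The coding sequences of Zfp966 and Zfp968 are identical over 1455 bases. Zfp966 had 0.986, 2.32 and 6.43 CPM in Mll5+/- and 2.42, 4.12 and 5.72 CPM in WT, and Zfp968 had 1.14, 2.70 and 3.69 CPM in Mll5+/- and 2.68, 1.85 and 4.79 CPM in WT. Reads that lie within such identical stretches cannot be told apart by sequence, and the sources used here do not say how the deposited counts divide them. Sequence outside the coding bases was not compared for this pair. More than 10% of 75-base runs were shared with another gene in 74 of 325 zinc finger genes (22.8%), against 19.0% of all tested genes, and 18 zinc finger genes overlap another listed gene.

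The genes of the proteins that KRAB domains recruit showed no common direction. Of a list of 30 corepressor and heterochromatin genes, 29 were in the table and tested, with 13 positive and 16 negative log2 fold changes and a median of -0.08. None passed an adjusted p of 0.05, and 1 of the 29 had an unadjusted p under 0.05, beside 2.88% of all tested genes. That gene was Pphln1, a subunit of the HUSH silencing complex, with 6.59, 3.93 and 4.58 CPM in Mll5+/- and 23.3, 25.8 and 16.4 CPM in WT, without overlap (log2 fold change -2.12 ± 0.54, SE; edgeR adjusted p = 0.9995). Trim28, the common corepressor, had 7.89, 9.83 and 12.6 CPM in Mll5+/- and 11.8, 7.35 and 10.5 CPM in WT. Setdb1, the histone H3 lysine methyltransferase it recruits, had 73.0, 46.6 and 95.1 CPM in Mll5+/- and 47.9, 42.7 and 41.3 CPM in WT, with the second Mll5+/- library inside the WT range (log2 fold change 0.70 ± 0.34, SE). Ehmt2, another histone methyltransferase, had 73.3, 57.6 and 79.4 CPM in Mll5+/- and 24.4, 57.1 and 49.2 CPM in WT, and Cbx5, a heterochromatin protein, had 240, 259 and 207 CPM in Mll5+/- and 242, 138 and 163 CPM in WT. Libraries of 1 genotype were at least 8-fold apart for 4 of the 29 genes (13.8%), beside 42.0% of the zinc finger genes and 29.5% of all tested genes, with levels not matched.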

How the data were processed

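RNA of sorted hippocampal microglia was extracted with TRIzol, amplified by SMART-seq and made into libraries with a transposase kit, per the labels' protocols. The authors deposited whole-number counts per gene symbol for 6 libraries with mm39 coordinates. FastQC, STAR, StringTie and DESeq2 are named in the submitters' processing notes, and the sources used here give neither their order and versions nor the counting rule and strandedness. Amplified reads were counted without molecular identifiers, so floors cover counting error only. The labels number the animals separately, and p-values measure the spread between these mice.

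The members and gene lists were chosen with earlier results of these data known. Genes were kept by filterByExpr by genotype (minimum count 10, minimum total 15), which kept 10832 of 11881. The fit over all genes was edgeR's quasi-likelihood test (edgeR 4.0.16, limma 3.58.1, R 4.3.3; TMM, robust, Mll5+/- minus WT, two-sided) with Benjamini-Hochberg adjustment at 0.05. DESeq2 1.42.0 and limma-voom were alternatives, besides other scalings, filters, limits and leaving out each library. The fit was tested on simulated data.

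Domain classes came from the longest reading frames of GENCODE vM21 transcripts (GRCm38), since protein sequences were not used here: C2H2 fingers by spacing, KRAB by at least 8 of 10 fixed letters, SCAN by its conserved stretch. Shared runs are 75-base words found in transcripts of more than 1 gene. The transcripts gave no sequence for Zfp268. Coordinates of genes are those of the deposited table, and promoters are RefSeq's on GRCm38.p6, with no conversion between builds. Named genes were those of highest mean CPM, of smallest p in each direction, at 0 in a whole genotype, of widest range within a genotype, the leading genes of the 3 largest runs, all Zkscan genes, a list with known roles, and the corepressor genes of smallest p with Trim28 and Setdb1.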

Additional observations from a re-analysis of the deposited data

How the results depend on the processing

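No paired analysis was possible because the replicate numbers only follow the order of the samples. With DESeq2, 18 genes were called, Zkscan2 alone among the zinc finger genes. With limma-voom, 3 zinc finger genes were higher and 14 lower in Mll5+/- at an unadjusted p under 0.05, against 7 and 11 in edgeR. Of all tested genes, 4.31% had such a p in limma-voom in either direction, against 2.88% in edgeR. The share of zinc finger genes far apart was 57.4% at 4-fold and 31.1% at 16-fold, and that of all tested genes 43.7% and 19.9%. Without the low-count filter the share was 43.25% of zinc finger genes and 32.37% of all genes. For genes without a shared 75-base run it was 47.33% and 31.08%, a setting chosen after seeing the data. Without the low-count filter, 497 of all genes had an unadjusted p under 0.05, against 312, and of the zinc finger genes 7 were higher and 11 lower, as in the filtered fit. With library totals in place of TMM, 5 KRAB genes lay above WT without overlap, against 3, and 17 below, against 18. In either direction this then held for 36 zinc finger genes (11.5%, beside 9.25% of all tested genes).

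Leaving out 1 library at a time gave 0 to 2 called genes and 0 to 1 called zinc finger genes, which was Zfp62 without the third Mll5+/- library. It gave 3 to 10 higher and 4 to 15 lower zinc finger genes at an unadjusted p under 0.05, with 3 higher without the third Mll5+/- library and 4 lower without the second WT library, beside 309 to 500 of all tested genes in either direction. Genes far apart made up 30.1 to 38.5% of the set and 22.0 to 26.5% of all tested genes. Where 3 libraries met 2, the genotypes did not overlap for 59 to 71 zinc finger genes (18.9 to 22.8%, beside 17.2 to 21.1% of all tested genes). With all 6 libraries the share of all tested genes was 9.32%, so such counts rise for any genes when a library is left out. Of the KRAB genes, 26 to 33 then lay below and 6 to 12 above WT. The share of all tested genes was not counted by direction there. The median log2 fold change was -0.16 to -0.02 over the set and -0.33 to -0.18 over KRAB genes, whose choice as a class came after seeing the data. The log2 ratio of summed CPM was -0.09 to 0.04, and 1 to 2 corepressor genes had an unadjusted p under 0.05. There were 74 zinc finger genes with a library at 0.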
